A study of Homo sapiens with 4 samples.

Results

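The genes described here encode apolipoproteins and proteins of lipoprotein assembly and lipolysis: APOA1, APOA2, APOB, APOC1, APOC3, APOE, APOH, APOM, MTTP and LIPC. They were taken by gene name from the authors' deposited table, and 9 of the 10 have a row among its 8727 genes. APOC1 has no row and therefore no value. The samples are HepG2, an established human line from a liver tumour, which the labels call hepatoblastoma. They comprise 2 libraries of cells given the solvent DMSO and 2 libraries of cells given isoginkgetin, a plant biflavonoid known to inhibit pre-mRNA splicing, at 20 µM for 24 h. The series title concerns autophagic cell death, and the comparison asks how transcript levels under the compound differ from those under the solvent.

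The liver packs triglyceride and cholesterol into very-low-density lipoprotein (VLDL). The scaffold of each particle is a single copy of apolipoprotein B, which the microsomal triglyceride transfer protein loads with lipid while it is made in the endoplasmic reticulum (ER). Smaller apolipoproteins exchange between particles in plasma, where they guide lipases and receptors, and apolipoproteins A-I and A-II form the shell of high-density lipoprotein (HDL). HepG2 cells are widely used to study apolipoprotein secretion.

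For each gene the authors' deposited table lists a level (the mean normalized count of all libraries), the log2 fold change, the standard error (SE) of the latter and p-values. Only genes whose adjusted p is below 0.05 are in it. No library has its own values here, so the spread between single libraries, their depth and any overlap between the groups cannot be shown. Higher and lower stand for fold changes above and below 0, taken as isoginkgetin relative to DMSO. The headers do not say which group is the numerator, and all directions given here would flip under the opposite order. The labels do not tell whether replicates were separate cultures, so the p-values cover the spread among these libraries alone, and that may be technical. In such bulk samples fewer cells of a type and less RNA per cell cannot be told apart.

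The windows before the start sites of 4 of the genes are shown first, 2 of genes that were lower (MTTP, LIPC) and 2 of genes that were higher (APOA2, APOE), because the 2 sets moved in opposite directions. Each is the 250 bases before a transcription start, 5′ to 3′ on the strand of the gene, from RefSeq on GRCh38.p14. The positions are chr4:99574574-99574823 on the plus strand for the inner start of MTTP and chr15:58431741-58431990 on the plus strand for LIPC. For APOA2 the window is chr1:161223629-161223878 on the minus strand, and for the outermost start of APOE it is chr19:44905546-44905795 on the plus strand. Capitals mark AGGTCA in MTTP and LIPC, TGTTTAC in APOA2 and GGGCGG in APOE, each on either strand.
MTTP: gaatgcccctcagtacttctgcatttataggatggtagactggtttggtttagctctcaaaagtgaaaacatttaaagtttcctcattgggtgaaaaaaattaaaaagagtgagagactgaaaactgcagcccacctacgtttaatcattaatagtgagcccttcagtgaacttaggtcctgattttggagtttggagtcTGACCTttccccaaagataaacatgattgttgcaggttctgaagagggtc
LIPC: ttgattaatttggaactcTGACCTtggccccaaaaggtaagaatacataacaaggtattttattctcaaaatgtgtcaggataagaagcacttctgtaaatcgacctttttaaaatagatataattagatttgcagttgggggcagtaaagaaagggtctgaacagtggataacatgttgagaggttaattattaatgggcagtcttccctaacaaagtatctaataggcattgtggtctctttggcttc
APOA2: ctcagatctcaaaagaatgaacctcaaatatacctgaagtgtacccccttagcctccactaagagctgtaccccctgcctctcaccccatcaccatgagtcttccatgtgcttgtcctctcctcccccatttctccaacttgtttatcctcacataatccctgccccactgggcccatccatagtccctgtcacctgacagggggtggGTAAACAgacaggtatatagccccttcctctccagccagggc
APOE: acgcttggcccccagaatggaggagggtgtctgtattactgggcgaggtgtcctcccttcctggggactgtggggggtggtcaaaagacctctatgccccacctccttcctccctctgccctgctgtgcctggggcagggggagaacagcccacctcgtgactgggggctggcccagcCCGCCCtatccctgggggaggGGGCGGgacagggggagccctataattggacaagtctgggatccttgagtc

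The capitals are letter matches to short motifs, and say nothing about binding. AGGTCA, the half-site of many nuclear receptors, lay from 50 to 45 bases before the inner start of MTTP and is found in 12.1% of all 35116 RefSeq windows of that length. It also matched 1 time in LIPC, from 232 to 227 bases before the start. TGTTTAC, the core read by FOXA factors, lay from 42 to 36 bases before the start of APOA2, against 2.98% of all windows. GGGCGG, the Sp1 box, matched 2 times in the outermost window of APOE, against 42.6% of all windows. It also matched in APOC1 and in the outer window of MTTP, neither of which is printed above. These short motifs were chosen after most of the motifs planned first had given no match. Among those without a match were CAAAGTCCA for HNF4, TTGCGCAA for C/EBP and TGATGNAAT for ATF4 with CHOP. The sterol regulatory element and the spaced direct repeat of the liver X receptor gave no match either. AGGTCA is one arm of that repeat. TATAAA matched in MTTP (10.7% of all windows) and CCAAT in MTTP and APOE (32.0%). Both strands were searched, in 10 windows of the 7 genes for which a window was given.

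Of the 10 genes, 9 passed the threshold of an adjusted p under 0.05, 7 of them lower and 2 higher. Among all 20024 genes tested, 43.6% passed, 21.1% as lower and 22.4% as higher. Whether APOC1 was among the genes tested is not known. The median log2 fold change of the 9 genes was −0.71, against 0.21 over all genes of the table. The 5 most abundant of the 9, at levels of 10000 or above, split into 3 lower and 2 higher. At that level 32.7% of the 248 genes of the table were lower. The other 4 were all lower. In the range of APOC3, APOM and MTTP, from 100 to under 2000, 54.3% of the table's genes were lower. In that of LIPC, under 100, 41.5% were lower. Over the whole table the share was 48.5%. The members were chosen with earlier results of these data known, so these counts are a description and carry no test.

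**Figure D1:**
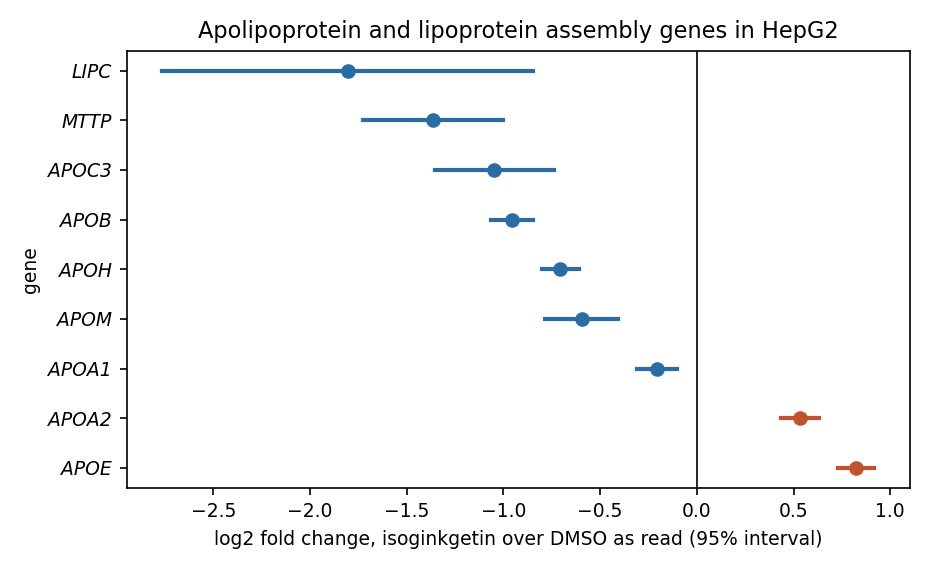
Log2 fold change (horizontal axis, isoginkgetin over DMSO as read) of the 9 genes with a row, points with 95% intervals from the deposited SE, lower genes in blue and higher ones in orange. The values run from −1.81 for LIPC to 0.82 for APOE. No interval reaches 0, which the limit to genes with an adjusted p under 0.05 made likely beforehand.

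APOB encodes the scaffold protein of VLDL and of low-density lipoprotein (LDL). It ranked 6 of 8727 by mean normalized count per the authors' deposited table, at 157429. Its log2 fold change there was −0.96 (SE 0.05, adjusted p 1.96e-66), a level 1.94-fold lower, with a 95% interval of the ratio from 0.478 to 0.555. If the fold change is read as the ratio of the group means, the mean implies normalized counts of 207767 under DMSO and 107091 under isoginkgetin. That is the largest change in normalized count of the 9 genes, although LIPC, MTTP and APOC3 had fold changes further below 0.

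MTTP encodes the large subunit of the microsomal triglyceride transfer protein, which brings lipid to apolipoprotein B. In the authors' deposited table its mean normalized count was 311.9 and its log2 fold change −1.36 (SE 0.18, adjusted p 2.54e-13). The implied levels were 449.2 under DMSO and 174.6 under isoginkgetin, 2.57-fold lower. MTTP fell further than APOB by 0.41 on the log2 scale (95% interval of MTTP minus APOB −0.78 to −0.03). P4HB, protein disulfide isomerase and the small subunit of the same complex, was higher at 0.46 (SE 0.05, adjusted p 1.18e-19) per the authors' deposited table, with a mean level of 40244. The 2 subunits thus had fold changes of opposite sign, and P4HB also serves protein folding in the ER at large.

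LIPC encodes hepatic lipase, which hydrolyses triglyceride and phospholipid of circulating particles. It had the lowest fold change and the lowest level of the 9 genes per the authors' deposited table, namely −1.81 on the log2 scale (SE 0.49, adjusted p 7.87e-05) at a mean normalized count of 52.7. The 95% interval of the ratio ran from 0.147 to 0.556, so the size of this change is poorly known. Its fold change over SE was 0.864 of the normal deviate of its own p-value, where the 5 most abundant genes stood at 0.996. MTTP stood at 0.967, APOC3 at 0.968 and APOM at 0.984. The fold change, SE and p-value of LIPC thus do not fully match, and the reason was not tested. With Bonferroni adjustment over 20024 genes the call was lost (adjusted p = 0.386). The span of LIPC overlaps that of LIPC-AS1, a noncoding RNA gene without a row, over 63835 bases in RefSeq. The libraries carry no strand, so reads there cannot be assigned.

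**Figure D2:**
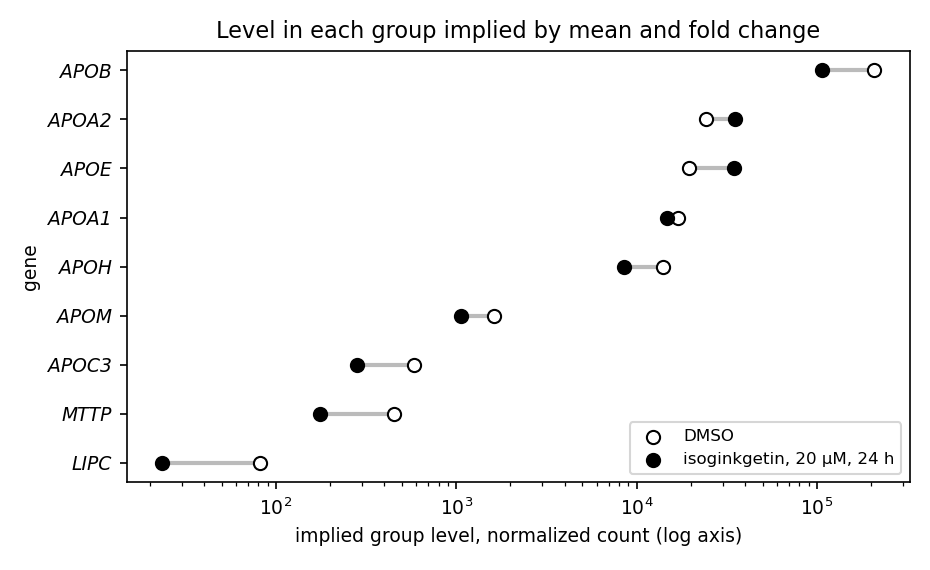
Normalized count in each group (horizontal log axis) implied by the deposited mean and fold change for each of the 9 genes, open points for DMSO and filled points for isoginkgetin. Implied counts of APOB went from 207767 to 107091 and those of APOE from 19618 to 34712, and no error is drawn because values per library are not analysed here.

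Apolipoprotein C-III, the product of APOC3, inhibits lipoprotein lipase and slows the uptake of triglyceride-rich particles. APOC3 was at −1.05 on the log2 scale (SE 0.16, adjusted p 5.38e-11) per the authors' deposited table, with a mean level of 432.7. Implied levels were 583.1 under DMSO and 282.2 under isoginkgetin, 2.07-fold lower. The difference of APOB minus APOC3 was 0.09 on the log2 scale, and its 95% interval of −0.24 to 0.42 held 0.

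APOE encodes the ligand through which remnant particles bind receptors of the liver. It was the gene with the highest fold change of the 9 per the authors' deposited table, at 0.82 (SE 0.05, adjusted p 4.88e-65), with a mean normalized count of 27165. Implied levels were 19618 under DMSO and 34712 under isoginkgetin, a rise of 1.77-fold (95% interval 1.66 to 1.89). APOE and APOB, both receptor ligands on lipoproteins, differed by 1.78 on the log2 scale (95% interval 1.64 to 1.92).

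The 2 main HDL proteins did not move together. APOA1, whose product activates the cholesterol-esterifying enzyme LCAT, was lower by a small amount per the authors' deposited table, at −0.21 on the log2 scale (SE 0.05, adjusted p 0.00024) at a mean normalized count of 15866. Implied levels were 16997 and 14734, so that it fell by 13.3%, and its call was lost with Bonferroni adjustment (adjusted p = 1). APOA2, the second protein of HDL by abundance, was higher at 0.54 (SE 0.05, adjusted p 3.38e-25) per the authors' deposited table, with a mean level of 29758. Its implied levels were 24299 under DMSO and 35217 under isoginkgetin, a rise of 44.9%. The difference between APOA2 and APOA1 was 0.74 on the log2 scale (95% interval 0.60 to 0.88).

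APOM and APOH bind other partners. APOM, an HDL-bound carrier of sphingosine-1-phosphate, was at −0.60 on the log2 scale (SE 0.10, adjusted p 2.73e-09) per the authors' deposited table, with a mean level of 1338. APOH, which encodes the phospholipid-binding β2-glycoprotein I, was at −0.71 (SE 0.05, adjusted p 4.77e-46) per the authors' deposited table, with a mean level of 11263. Implied levels fell from 1611 to 1066 for APOM and from 13968 to 8559 for APOH. The difference of APOM minus APOH was 0.11 on the log2 scale, and its 95% interval of −0.10 to 0.32 held 0. APOM overlaps BAG6 over 258 bases in RefSeq, and the libraries carry no strand, so reads there cannot be assigned. BAG6, an abundant chaperone gene, was at 0.26 per the authors' deposited table, opposite to APOM.

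Ordered by fold change from LIPC up to APOE, 4 of the 8 neighbouring pairs had an interval of the difference that held 0. These were LIPC and MTTP, MTTP and APOC3, APOC3 and APOB, and APOH and APOM. The other 4 pairs, APOB and APOH, APOM and APOA1, APOA1 and APOA2, and APOA2 and APOE, had intervals that left out 0. These intervals take the estimates of different genes as independent, which the table does not allow to be tested.

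**Figure D3:**
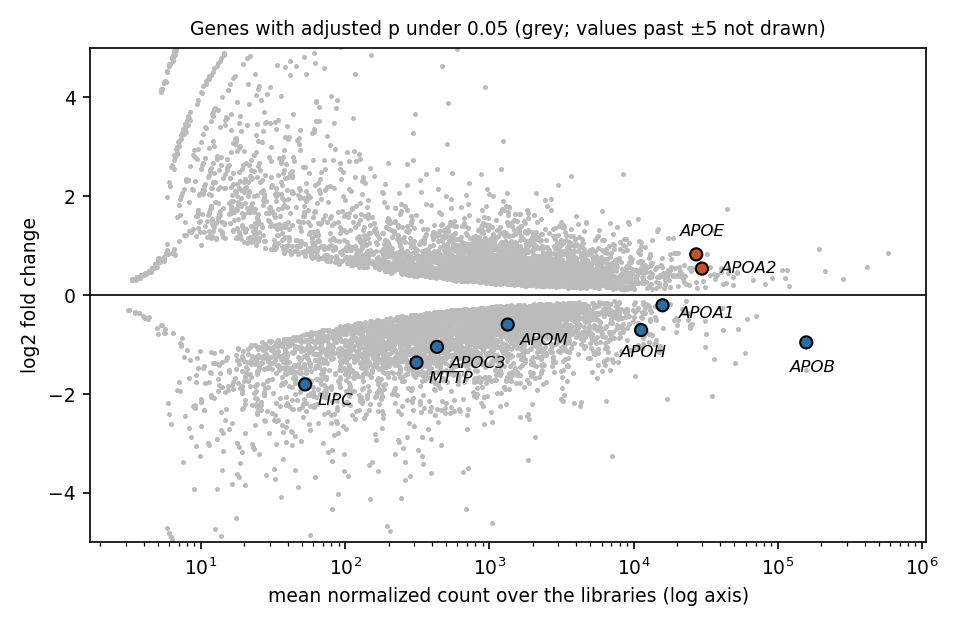
Log2 fold change (vertical axis) against mean normalized count (horizontal log axis) for the genes with an adjusted p under 0.05 in grey, with the 9 genes marked in blue (lower) and orange (higher). APOB stands at the right edge with few genes more abundant than it, while LIPC has the lowest count of the 9 genes.

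A mean normalized count grows with the length of a transcript, so levels of different genes were compared per kilobase of exon, with the union of exons in GENCODE 29. The order depends on the group, so the implied levels of each group were used. Under DMSO APOA2 was the most abundant at 25713 normalized counts per kilobase, followed by APOB at 14012, APOA1 at 11936, APOH at 10486 and APOE at 8954. Under isoginkgetin APOA2 stood at 37266 and APOE came next at 15843, ahead of APOA1 at 10347, APOB at 7222 and APOH at 6426. APOE was thus the lowest of these 5 genes under DMSO and below only APOA2 under isoginkgetin. APOB, with 14.8 kb of exons, was below only APOA2 under DMSO and above only APOH under isoginkgetin. These levels carry no error, so neighbours in the order were not tested. Averaged over the groups, the 4 other genes were lower, with APOM at 806.2, APOC3 at 499.6, MTTP at 57.8 and LIPC at 10.2. The annotation that the authors counted against is not given in the sources used here, and the union holds exons that HepG2 may not use.

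Several of the genes sit in 2 clusters, which RefSeq places on chromosomes 11 and 19. In the cluster of chromosome 11 the fold changes in the authors' deposited table were −2.15 (SE 0.18) for APOA5, a regulator of triglyceride lipolysis, −1.05 for APOC3 and −0.21 for APOA1, in that order along the chromosome. APOA4, between APOA5 and APOC3, has no row. The fold change of APOA5 minus that of APOC3 was −1.10 (95% interval −1.57 to −0.64), and that of APOC3 minus that of APOA1 was −0.84 (95% interval −1.17 to −0.52). Of the protein-coding genes beside the cluster, ZPR1 on the APOA5 side was higher at 1.14 and SIK3 on the APOA1 side at 0.26 per the authors' deposited table. BUD13, the next gene beyond ZPR1, has no row. APOA1-AS, an antisense transcript that overlaps APOA1, was at 2.66 (SE 1.24) per the authors' deposited table. Its mean normalized count of 12.2 is small beside the 15866 of APOA1, and without strand the reads of the pair cannot be told apart.

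In the cluster of chromosome 19 only APOE has a row among APOE, APOC1, APOC4 and APOC2. Its neighbour TOMM40, a subunit of the mitochondrial import pore, was also higher, at 0.30 (SE 0.07) per the authors' deposited table. On the APOC2 side CLPTM1 and RELB have no row. The next gene out from TOMM40, PVRL2 (NECTIN2), was lower at −0.70 (SE 0.07) per the authors' deposited table. APOC1P1, a pseudogene copy beside APOC1, was at −0.89 (SE 0.52, adjusted p 0.0398) per the authors' deposited table, with a mean level of 39.2, and reads may be divided between it and APOC1. These neighbours were named for their position, after their values had been seen.

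**Figure D4:**
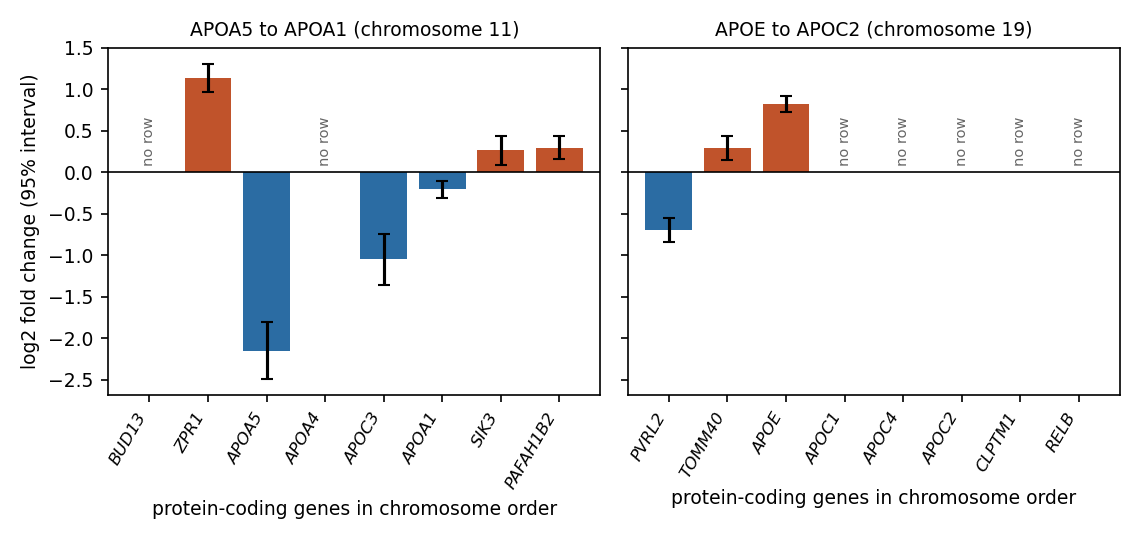
Log2 fold change (vertical axis, bars with 95% intervals) of the protein-coding genes in chromosome order at the cluster from APOA5 to APOA1 on chromosome 11 and from APOE to APOC2 on chromosome 19, each with 2 flanking genes a side. The 3 apolipoprotein genes with a row on chromosome 11 are all below 0, from −2.15 to −0.21, and APOE on chromosome 19 is above 0 at 0.82.

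Other genes of lipoprotein metabolism were followed in 8 lists, which hold 142 genes. A total of 84 have a row in the table, 33 higher and 51 lower, and their median was −0.44 on the log2 scale. That is 59.2% of the list genes, beside 43.6% of all genes tested. The list share counts every listed gene, including any that was never tested, so the denominators are unlike. Of the 5048 genes of the table at levels from 100 to under 2000, 54.3% were lower and the median was −0.34. Many list genes with a row lie above that range and some lie below it, so it is no background for every list. At levels of 10000 or above 32.7% of the table's genes were lower, and under 100 the share was 41.5%. The share of lower genes in a list is a description and was not tested against these shares. Among other apolipoproteins and lipoprotein-bound proteins, 7 of 18 have a row, 6 lower and 1 higher. Beside APOA5, CLU (apolipoprotein J) was at −0.39 and PON3, an HDL-bound esterase, at −0.45 per the authors' deposited table. The exception was APOL2, an intracellular apolipoprotein L, at 1.29 (SE 0.16) per the authors' deposited table. The remaining 3, at mean normalized counts under 100, were APOF at −2.05, APOL1 at −1.26 and APOL3 at −3.81 per the authors' deposited table. APOC2 and APOC4 have no row.

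Genes of particle assembly, lipid droplets and ER exit leaned the other way from APOB and MTTP. Of 19 genes 13 have a row, 11 higher and 2 lower, with a median of 0.55. That is 68.4% of the list, beside 43.6% of all genes tested (21.1% lower, 22.4% higher), with unlike denominators. At 1.5-fold or more 6 were higher and 1 lower. Except for TMEM41B, at a mean normalized count of 1340, those with a row lie above the level range described for the lists. The mostly lower genes of that range are therefore no background for this list. Among the table's 248 genes at levels of 10000 or above, which include P4HB, 32.7% were lower and the median was 0.33. The lean of this list was not tested against genes of similar level. SEC24D and SEC24A, cargo adaptors of the COPII coat that buds vesicles from the ER, were at 1.33 (SE 0.08) and 1.19 (SE 0.06) per the authors' deposited table. SAR1A, the GTPase that starts the coat, was at 1.14 (SE 0.06) per the authors' deposited table. SORT1, a sorting receptor that binds apolipoprotein B, was lower at −1.29 (SE 0.07) per the authors' deposited table.

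Genes that supply the lipid were mostly lower, 12 against 5 higher among 17 of 23 with a row, with a median of −0.45. Of this list 73.9% have a row, beside 43.6% of all genes tested (21.1% lower, 22.4% higher), with unlike denominators. At 1.5-fold or more 7 were lower and 2 higher. DGAT2, which makes triglyceride for VLDL, was at −1.65 (SE 0.12), and SOAT2, which makes cholesteryl ester in hepatocytes, at −1.61 (SE 0.18) per the authors' deposited table. In the other direction stood CES1, a carboxylesterase that can hydrolyse stored lipid, at 1.94 (SE 0.07) and ACSL1, which activates fatty acids, at 1.53 (SE 0.12) per the authors' deposited table. DGAT1 has no row.

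Lipases, lipid transfer proteins and lipase regulators have a row in 4 of 11 cases, all lower. The share of listed genes with a row is 36.4%, beside 43.6% of all genes tested, again with unlike denominators. LCAT, the plasma enzyme that esterifies HDL cholesterol, was at −1.36 (SE 0.22) and LMF2, a relative of the lipase maturation factor, at −0.46 (SE 0.08) per the authors' deposited table. The other 2, at mean normalized counts under 100, were the lipase inhibitor ANGPTL4 at −1.96 and the maturation factor LMF1 at −1.69 per the authors' deposited table.

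Of 18 lipoprotein receptors and their regulators 11 have a row, 8 lower and 3 higher. That is 61.1% of the listed genes, beside 43.6% of all genes tested (21.1% lower, 22.4% higher), with unlike denominators. MYLIP, a ubiquitin ligase that acts on lipoprotein receptors, was at 1.79 (SE 0.22) per the authors' deposited table. The HDL receptor SCARB1 was at −1.13 (SE 0.06) and SORL1, a sorting receptor that binds apolipoprotein E, at −1.07 (SE 0.06) per the authors' deposited table. Of 15 lipid efflux transporters 9 have a row (60%, beside the same 43.6%), 7 lower and 2 higher, with a median of −1.07. ABCG5 and ABCG8, the subunits of the sterol exporter into bile, were at −1.08 (SE 0.15) and −1.11 (SE 0.22) per the authors' deposited table. Their difference of −0.04 had a 95% interval from −0.56 to 0.49. ABCB4, the phospholipid exporter of bile, was at −1.22 (SE 0.19) and ABCA2, a lipid transporter of endosomes and lysosomes, at −1.16 (SE 0.11) per the authors' deposited table.

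Of 32 transcription factors known for apolipoprotein genes 18 have a row, 11 lower and 7 higher, with a median of −0.42. Their share with a row is 56.25%, beside 43.6% of all genes tested (21.1% lower, 22.4% higher), with unlike denominators. At 1.5-fold or more 7 were lower and 4 higher. MLXIPL (ChREBP), the carbohydrate-responsive factor of lipogenesis, was lowest at −2.18 (SE 0.07) per the authors' deposited table. HNF4A, a nuclear receptor known to drive APOC3, APOB and MTTP, was at −0.37 (SE 0.06) per the authors' deposited table. The hepatocyte factor ONECUT1 was at −1.22 (SE 0.24) per the authors' deposited table. Higher were NR1D2, a repressor of the clock, at 1.42 (SE 0.11) and CEBPG, a bZIP factor, at 1.08 (SE 0.08) per the authors' deposited table. Factors of APOB mRNA editing and other RNA-binding proteins all changed by less than 1.5-fold, 4 higher and 1 lower of 5 with a row, of 6 listed, or 3 and 2 with fold changes centred on the table's median. RBM47 was at 0.40, HNRNPD at 0.34, SYNCRIP at 0.29 and A1CF, the editing cofactor, at −0.21 per the authors' deposited table. APOBEC1, the editing enzyme, has no row.

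**Figure D5:**
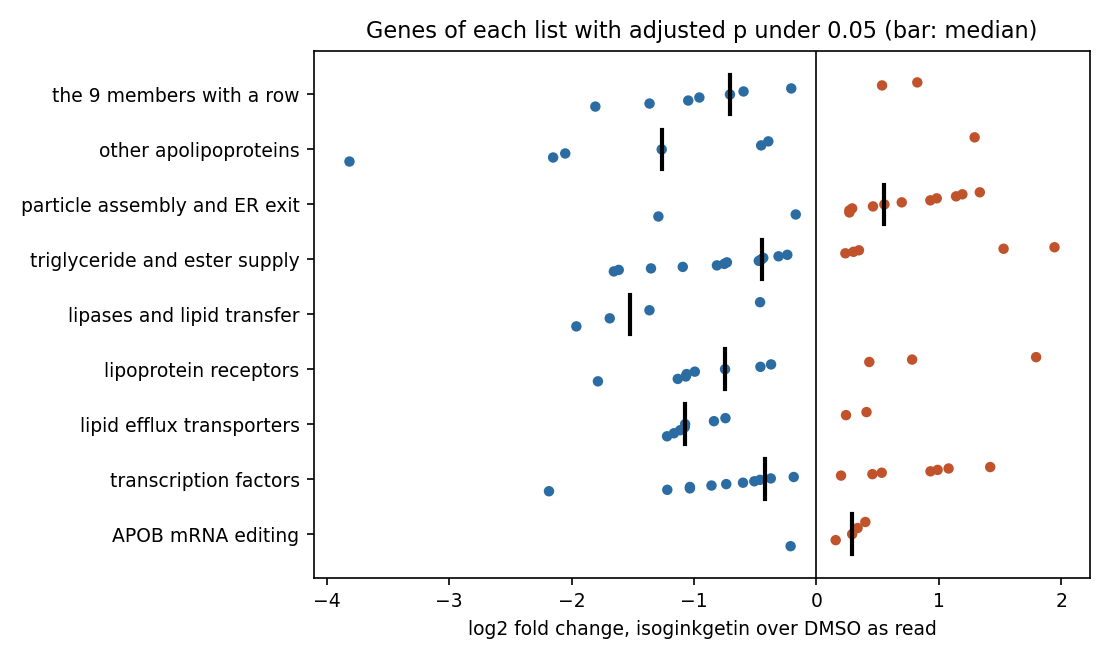
Log2 fold change (horizontal axis) of each gene with a row in the 9 members and in the 8 lists, lower genes in blue, higher ones in orange, with a black bar at the median. Medians lie at 0.55 for particle assembly and ER exit and 0.29 for APOB mRNA editing, and below 0 for the members and the other 6 lists.

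Marker genes of hepatocytes, intestinal epithelium and macrophages were looked up beside the labelled line. A gene without a row was not called or not tested, so a missing row does not show that a marker is absent. The lookup therefore cannot check the cell type. Of 12 hepatocyte markers 11 have a row, with mean normalized counts from 442.3 to 58729 per the authors' deposited table, 9 lower and 2 higher, and their median was −0.71 on the log2 scale. That median is the same to 2 decimals as the one of the 9 genes. Of all genes tested, 43.6% have a row, 21.1% lower and 22.4% higher. The hepatocyte marker without a row is ALB. Lower markers included AHSG at −1.17, AFP at −1.04 and TF at −0.71, and the higher ones were RBP4 at 0.39 and AMBP at 0.19 per the authors' deposited table. Of 6 intestinal markers only VIL1, which HepG2 also expresses, has a row, at −1.68 per the authors' deposited table. Of 6 macrophage markers, a cell type that makes APOE and APOC1, CSF1R and MRC1 have a row at mean normalized counts of 11.7 and 30.3, at 3.53 (SE 1.39) and 8.33 (SE 2.73) per the authors' deposited table. CD68, CD163, CD14 and ITGAM have no row. The part of these markers in the rise of APOE, at a mean normalized count of 27165, was not tested.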

How the data were processed

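Polyadenylated RNA of 4 HepG2 libraries, 2 per group, was sequenced with a non-directional kit, per the labels' protocols. Groups came from sample titles, dose and time from the design text. STAR 2.7.0, featureCounts, hg19 and mm10 appear, without roles, per the submitters' processing notes. The authors' deposited table has the columns of a DESeq2 result, per the file headers; no version, formula or annotation is given in the sources used here. In the table, the deposited mean normalized count is a signal averaged over the libraries by the authors. The deposited fold change and SE are on the log2 scale. The deposited p-value is per gene, and its adjusted value follows Benjamini-Hochberg over 20024 genes, recovered from p, rank and adjusted p.

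Members and lists were chosen with earlier results of these data known. The fold changes and tests are the authors', used because a count model needs values per library. Computed here (pandas 2.3.3, scipy 1.17.1) were 95% intervals from the SE, differences between genes with independent errors, implied group levels, Bonferroni and Benjamini-Yekutieli adjustment, exon lengths (GENCODE 29) and motif matches (RefSeq, GRCh38.p14). Adjustments were tested on simulated data. Named are the members, HNF4A, APOA4, APOA5, APOC2, APOC4 and P4HB, and up to 4 genes per list with the largest change among those averaging at least 100 normalized counts; others were chosen after their values were seen, and some genes and motifs are not reported here. Of 142 list genes 1 matched by an older symbol. Depth per library is unknown.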

Additional observations from a re-analysis of the deposited data

How the results depend on the processing

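All 9 genes kept their call at an adjusted p under 0.001, with Benjamini-Yekutieli adjustment and with p-values recomputed from fold change over SE; with Bonferroni 7 of 9 did, APOA1 and LIPC being the exceptions. Centring on the table's median shifted every fold change down by 0.21 on the log2 scale and turned no sign among the 9. At 1.5-fold or more 1 member was higher (APOE) and 6 were lower. At 2-fold or more 0 were higher and 3 lower (LIPC, MTTP, APOC3), since the other changes were smaller. Over all genes of the table, 31.4% changed by 2-fold or more in either direction. Restricting members to a mean normalized count of at least 100, an alternative chosen after seeing the data, left 6 lower and 2 higher. At 1.5-fold or more 15 list genes were higher and 35 lower, against 33 and 51 without that limit. No paired analysis was possible because the table holds no value per library, and leaving out replicates was not run for the same reason. The standard error limits precision: its median was 0.72 for genes under a level of 100 and 0.05 for those from 10000 up.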

Other observations

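Some genes with apolipoprotein in their names outside lipid transport also changed. In the authors' deposited table the DNA cytidine deaminases APOBEC3B, APOBEC3F and APOBEC3C, relatives of the APOB editing enzyme that act against viruses and retroelements, had log2 fold changes of −2.46 (SE 0.51), −2.01 (SE 0.46) and −1.34 (SE 0.11). All 3 were lower, and they are the genes with a symbol starting in APOBEC that have a row. How many such genes were tested is not known. Among all 20024 genes tested, 43.6% passed the threshold, 21.1% as lower. The mean normalized counts were 51.0 for APOBEC3B, 56.3 for APOBEC3F and 1021 for APOBEC3C, so the first 2 are imprecise. They were picked by symbol after their values had been seen.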
